A study of Homo sapiens with 15 samples.

Results

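Small Cajal body RNAs are short non-coding RNAs of the nucleus that steer the chemical modification of the spliceosome's own RNAs. The set was taken from the array annotation by symbol: genes starting with SNORD, SNORA or SCARNA, each read from its probe set of highest mean, without the host genes whose symbols end in HG. This gave 23 genes of the 14884 that carry a symbol, and all 23 start with SCARNA. None starting with SNORD or SNORA had a symbol in the annotation used, so the nucleolar RNAs were not analysed here. Every member had 1 probe set, and 22 of the 23 passed the filter on dim signals that left 12147 genes for testing. SCARNA15 did not pass and is given by its level alone.

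Total RNA was measured on 15 Affymetrix arrays, with 3 arrays labelled as biological replicates for each of 5 groups. These were C#1, C#2, C#3, then C#6, all resistant to trastuzumab emtansine (T-DM1), and parental BT474, a human breast cancer line with HER2 amplification that is sensitive to the drug. T-DM1 couples a HER2 antibody to a drug that poisons microtubules. Each clone was grown out from 1 cell after long exposure of BT474 to the drug and was then kept in 5 nM T-DM1 for 3 months, so its 3 arrays replicate that clone only. The labels do not say if T-DM1 was in the medium when RNA was taken, and no clone grown without selection was measured. Resistance, single-cell cloning and drug culture therefore cannot be told apart, nor can a difference in culture or array handling between the clones and the parental line. In total RNA from a culture, a change in the share of cells that make an RNA and a change in its level per cell cannot be told apart either.

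The deposited values are log2 expression values, on which a difference of 1 is a doubling. The upper quartile lay between 5.94 and 5.96 on the parental arrays and between 5.80 and 5.89 on the clone arrays, without overlap. The part of this offset in the calls was not tested beyond the alternative scalings given below. Of 9 listed markers of luminal breast epithelium, 8 were measured, at 5.18 to 12.62. The mean of GATA3 was 9.12 in parental cells, against 6.23 in C#1, 5.98 in C#2, 8.36 in C#3 and 6.77 in C#6. Means of ESR1 and KRT18 were also lower in every clone, and those of TFF1, EPCAM and KRT19 were higher. Those of KRT8 and FOXA1 went both ways. GRB7, a neighbour of ERBB2 in the amplified region, stood at 9.22 to 10.43. Its group means ran from 10.36 in parental cells to 9.31 in C#6. The part of these marker differences in the results was not tested. ERBB2 was not analysed here. The measured markers of fibroblasts (DCN and LUM), endothelium (PECAM1 and VWF) and leukocytes (LYZ) reached at most 4.17. Within the parental line, replicate 1 held the highest value of its group for 18 of 22 tested members, and within C#1 replicate 1 did so for 15. The part of these array differences in the results was not tested beyond leaving out each array in turn.

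As background, these RNAs pair with a short stretch of a spliceosomal RNA and position an enzyme on it. RNAs with box C/D motifs guide methylation of the ribose through fibrillarin, those with H/ACA motifs guide the conversion of uridine to pseudouridine through dyskerin, and a few composite RNAs carry both kinds of box. A short localisation signal retains them in the Cajal body, a nuclear compartment organised by coilin, where the spliceosomal RNAs mature. Most are cut out of introns of protein-coding genes, so they share a promoter with the gene that contains them. An array probe inside an intron cannot separate the mature small RNA from unspliced host transcript.

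SCARNA5 and SCARNA6, the pair that was higher in every clone, both lie within ATG16L1, an autophagy gene. SCARNA8, the third such member, lies within HAUS6, a gene of the mitotic spindle, and SCARNA9, the one member lower in every clone, lies within CEP295, a gene of the centriole. The 250 bases before each of these 3 start sites are shown because they lie before the genes that contain these 4 members. Whether each member lies on its gene's strand was not checked. They are RefSeq sequences of build GRCh38.p14, 5′ to 3′ on the gene's strand, and the capitals mark CCGGAA on either strand, a motif picked after these letters were seen. The window of ATG16L1 is chr2:233251423-233251672 on the plus strand, that of HAUS6 is chr9:19102905-19103154 on the minus strand, and that of CEP295 is chr11:93661432-93661681 on the plus strand.
ATG16L1: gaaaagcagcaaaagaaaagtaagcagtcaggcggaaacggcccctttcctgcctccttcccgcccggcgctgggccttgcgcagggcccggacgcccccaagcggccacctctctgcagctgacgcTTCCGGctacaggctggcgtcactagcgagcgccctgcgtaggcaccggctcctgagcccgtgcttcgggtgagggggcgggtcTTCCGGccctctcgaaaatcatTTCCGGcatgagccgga
HAUS6: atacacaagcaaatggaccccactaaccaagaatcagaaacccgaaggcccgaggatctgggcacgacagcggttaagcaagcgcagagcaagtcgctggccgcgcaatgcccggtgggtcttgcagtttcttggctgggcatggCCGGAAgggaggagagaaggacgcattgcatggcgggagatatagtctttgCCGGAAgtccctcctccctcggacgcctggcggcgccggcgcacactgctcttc
CEP295: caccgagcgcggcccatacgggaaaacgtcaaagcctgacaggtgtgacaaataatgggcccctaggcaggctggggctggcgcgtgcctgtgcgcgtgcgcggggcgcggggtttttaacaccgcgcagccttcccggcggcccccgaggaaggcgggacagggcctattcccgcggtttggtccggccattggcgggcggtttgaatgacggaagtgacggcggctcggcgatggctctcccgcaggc
CCGGAA occurs 3 times before ATG16L1, 2 times before HAUS6 and 0 times before CEP295. Of 35116 promoter windows, 14.5% hold it. The CEP295 window holds CCAAT, found in 32.0% of windows, and GGGCGG, found in 42.6%; the ATG16L1 window holds GGGCGG 2 times, and none of the 3 holds TATAAA, found in 10.7%. All 4 motifs were sought on both strands, and the matches in these windows do not overlap each other. A match describes these letters only.

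Levels of different probe sets are listed as signals and not compared as amounts of RNA. The highest mean over 15 arrays was that of SCARNA22 at 10.66, followed by SCARNA17 at 9.55, SCARNA12 at 8.78, SCARNA10 at 8.75, SCARNA5 at 8.37 and SCARNA4 at 8.03. SCARNA15 had the lowest at 3.20. It averaged 3.32 ± 0.39 in C#1, 3.19 ± 0.13 in C#2, 2.95 ± 0.43 in C#3 and 3.44 ± 0.17 in C#6, against 3.12 ± 0.25 in parental cells (SD, n = 3 each). SCARNA9L and SCARNA14 were also dim and passed the filter in 11 and 14 of the 15 arrays.

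**Figure D1:**
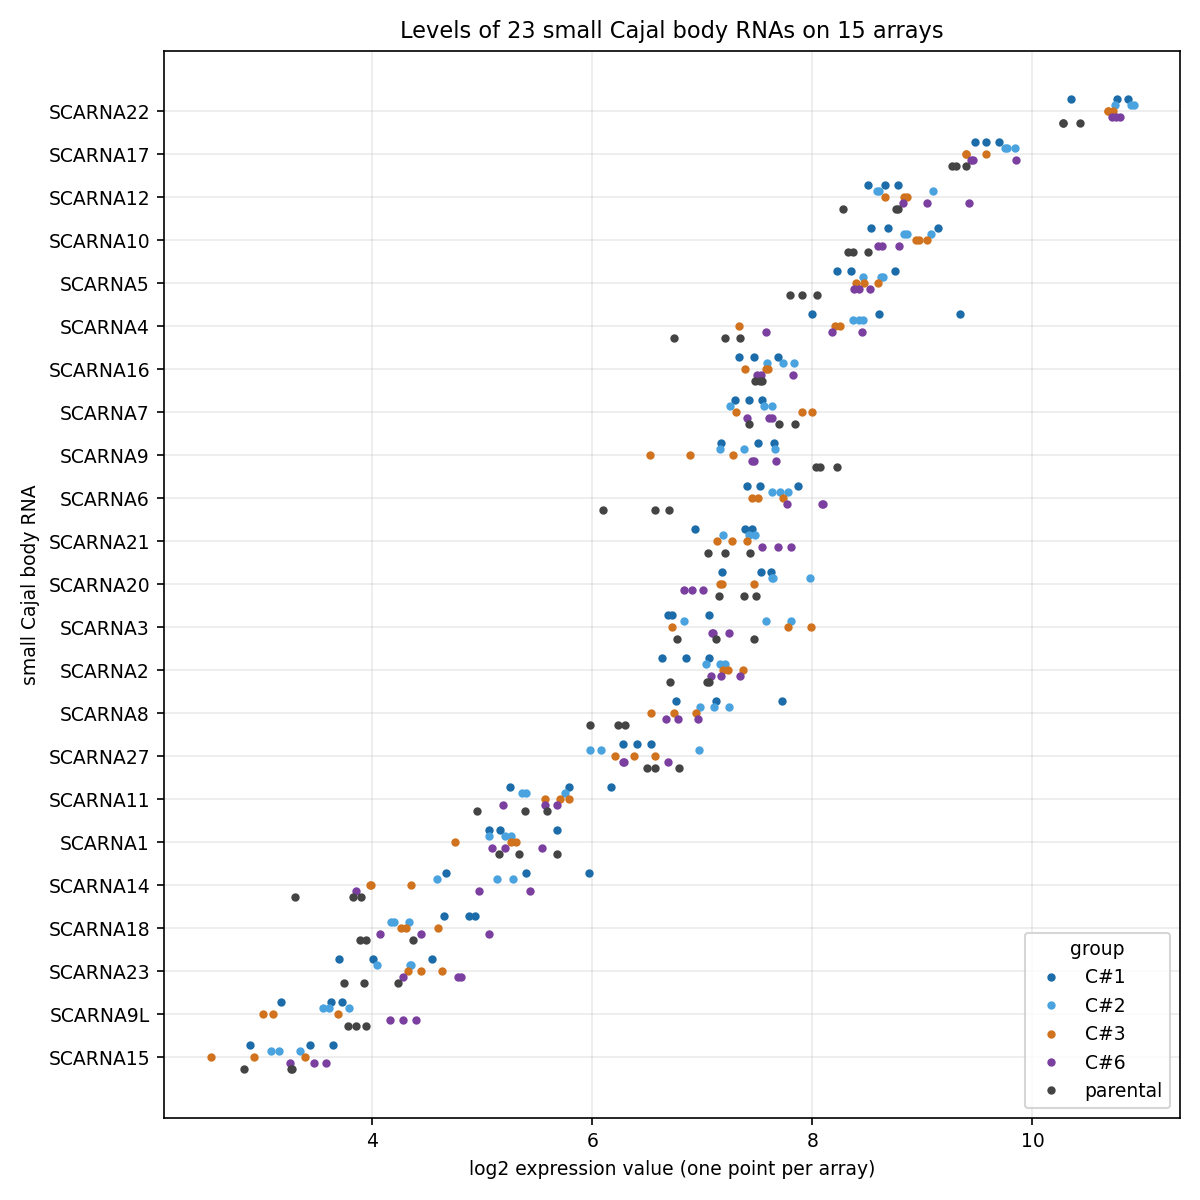
Log2 expression value (x axis) of each of the 23 small Cajal body RNAs (rows, ordered by mean), with 1 point per array, coloured by group. SCARNA22 lies highest and SCARNA15 lowest, and the parental points of SCARNA6 lie left of all clone points while those of SCARNA9 lie right of them.

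More of the tested members were called higher than lower in every clone, at an adjusted p below 0.05. In C#1, 6 of 22 members were called higher and 1 lower, where 6.03% and 11.2% of all tested genes were. In C#2, 8 were called higher and 1 lower, beside 5.47% and 11.5% of all genes. In C#3, 5 were called higher and 2 lower, beside 6.22% and 11% of all genes. In C#6, 8 were called higher and 2 lower, beside 7.73% and 14.7%. The split depended on scaling in 2 clones: after renewed quantile normalization C#6 had 10 higher and 0 lower, and after centring each array on its median C#3 had 3 higher and 2 lower.

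As a share of members, the calls upward were 27.3% in C#1, 36.4% in C#2, 22.7% in C#3 and 36.4% in C#6, each above the share of all genes called higher. The calls downward were 4.55%, 4.55%, 9.09% and 9.09% in the same order, each below the share of all genes called lower. The median log2 change over the 22 members was 0.11 in C#1, 0.24 in C#2, 0.32 in C#3 and 0.35 in C#6, where the median of all tested genes lay between -0.02 and -0.00. Members above 0 numbered 14, 17, 17 and 17 of 22 in that order, beside 46.0%, 46.9%, 49.8% and 47.2% of all genes. All 4 comparisons use the same 3 parental arrays and are not independent of each other. Between C#1 and C#2 limma called no member as different, and the lowest adjusted p was 0.639, for SCARNA18 (difference 0.59, SE 0.19). The share of all genes called between C#1 and C#2 was not counted here, so this is not read as a result about the members. How far these clones count as separate cases was not tested.

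By member, 14 of 22 were called in at least 1 clone in either direction, where 37.5% of all genes were. The number called in all 4 clones was 4, with 3 more called in 3 clones, 1 in 2 clones and 6 in a single clone. Called higher in all 4 clones were 3 members, SCARNA5, SCARNA6 and SCARNA8, beside 1.04% of all genes. Called lower in all 4 was 1 member, SCARNA9, beside 3.65% of all genes. Without parental replicate 1, parental replicate 2, C#6 replicate 2 or C#6 replicate 3, only SCARNA5 and SCARNA6 stayed called in all 4 clones, which makes 2.

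**Figure D2:**
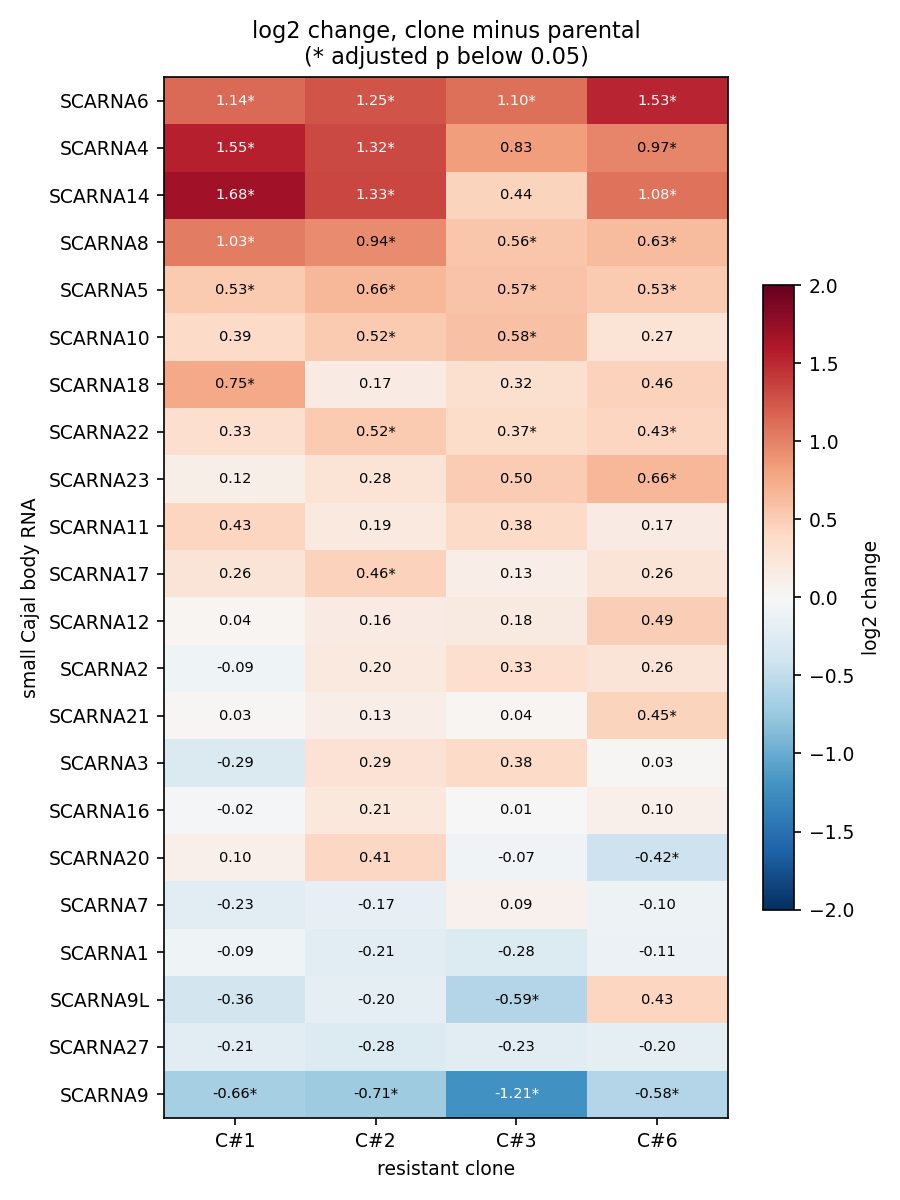
Log2 change, clone minus parental, of the 22 tested members (rows, ordered by their mean change) in the 4 clones (columns). An asterisk marks an adjusted p below 0.05; SCARNA6 is at the top with 1.14, 1.25, 1.10 and 1.53, and SCARNA9 at the bottom with -0.66, -0.71, -1.21 and -0.58.

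The composite RNAs, which carry both kinds of box, were SCARNA5, SCARNA6, SCARNA10 and SCARNA12. Of these 4, 2 were called higher in C#1, 3 in C#2, 3 in C#3 and 2 in C#6, where 6.03%, 5.47%, 6.22% and 7.73% of all genes were. None was called lower, where 11% to 14.7% of all genes were. Their changes lay between 0.04 and 1.53.

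SCARNA6 had the largest rise of the 3 members called higher in every clone. Its values were 7.87, 7.52 and 7.41 in C#1, 7.71, 7.63 and 7.78 in C#2, 7.73, 7.45 and 7.51 in C#3 and 7.77, 8.10 and 8.09 in C#6, against 6.70, 6.57 and 6.10 in parental cells. All 12 clone arrays lay above the 3 parental ones, with a gap between 7.41 and 6.70, and C#6 replicates 2 and 3 were the highest. The log2 changes were 1.14, 1.25, 1.10 and 1.53 (SE 0.16) in that order of clones, which are 2.20, 2.37, 2.15 and 2.88-fold. The adjusted p-values were 0.000141, 5.36e-05, 0.000182 and 4.61e-06, and each call was kept whichever 1 array was left out.

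SCARNA5, from the same gene as SCARNA6, changed less. It stood at 8.75, 8.35 and 8.22 in C#1, 8.62, 8.46 and 8.64 in C#2, 8.47, 8.60 and 8.40 in C#3 and 8.42, 8.52 and 8.38 in C#6, against 8.04, 7.80 and 7.91 in parental cells. Again no clone array reached down to the parental ones, although C#1 replicate 3 came near. The changes were 0.53, 0.66, 0.57 and 0.53 (SE 0.12), or 1.44, 1.58, 1.49 and 1.44-fold, with adjusted p-values of 0.0074, 0.0017, 0.00429 and 0.0057. These calls too were kept whichever 1 array was left out.

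SCARNA10 guides modification of the spliceosomal RNA U5 and lies within NCAPD2, a condensin gene. Its values were 9.14, 8.69 and 8.53 in C#1, 9.08, 8.86 and 8.83 in C#2, 8.94, 9.04 and 8.97 in C#3 and 8.63, 8.79 and 8.60 in C#6, against 8.51, 8.37 and 8.32 in parental cells. All clone arrays were above all parental arrays, by as little as 8.53 against 8.51. It rose by 0.52 in C#2 (adjusted p = 0.012) and by 0.58 in C#3 (adjusted p = 0.00604), while 0.39 in C#1 and 0.27 in C#6 missed the threshold (adjusted p = 0.0546 and 0.162; SE 0.13). The C#2 call ended without parental replicate 3 or C#2 replicate 1, at changes of 0.45 to 0.48. Members with all 12 clone arrays above the parental ones numbered 4, namely SCARNA5, SCARNA6, SCARNA8 and SCARNA10, beside 3.04% of all genes. SCARNA9 was the 1 member with all 12 below, beside 7.85% of all genes. SCARNA12, within the prohibitin gene PHB2, was called in no clone, with changes of 0.04, 0.16, 0.18 and 0.49.

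The spliceosomal RNA U2 pairs with the branch point of the intron. Its tested guides taken here were the H/ACA RNAs SCARNA1, SCARNA4 and SCARNA8 and the C/D RNAs SCARNA2 and SCARNA9. SCARNA9L, a near copy of SCARNA9, and the untested SCARNA15 are not counted among them. These 5 guides moved in both directions. In C#1, C#2 and C#6, 2 of these 5 were called higher and 1 lower, and in C#3 1 higher and 1 lower, beside 5.47% to 7.73% of all genes higher and 11% to 14.7% lower.

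SCARNA8 stood at 7.72, 6.76 and 7.12 in C#1, 6.98, 7.11 and 7.24 in C#2, 6.53, 6.94 and 6.74 in C#3 and 6.78, 6.96 and 6.67 in C#6, against 6.30, 5.98 and 6.23 in parental cells. Every clone array was above every parental one, with C#1 replicate 1 the highest. The changes were 1.03, 0.94, 0.56 and 0.63 (SE 0.18), or 2.05, 1.92, 1.48 and 1.55-fold, with adjusted p-values of 0.00114, 0.00226, 0.0454 and 0.021. The call in C#3 was near the threshold. It ended without any of 9 arrays (all 3 parental arrays, C#1 replicate 3, C#2 replicate 2, C#3 replicates 2 and 3, C#6 replicates 1 and 3), where the change was 0.47 to 0.63 and the adjusted p reached 0.164. It also ended with no filter (adjusted p = 0.0515) and with median centring (0.0508). The call in C#6 ended without parental replicate 2 or C#6 replicate 2, at 0.54 to 0.55.

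SCARNA4, within the RNA-binding protein gene KHDC4, had one of the largest changes. Its values were 9.34, 8.0 and 8.61 in C#1, 8.46, 8.37 and 8.42 in C#2, 7.33, 8.25 and 8.21 in C#3 and 7.58, 8.45 and 8.18 in C#6, against 6.74, 7.21 and 7.34 in parental cells. The clones lay above the parental line except for C#3 replicate 1, which fell just below the highest parental array. It rose by 1.55 in C#1, 1.32 in C#2 and 0.97 in C#6 (SE 0.30; adjusted p = 0.00187, 0.00596 and 0.0271), whereas the change of 0.83 in C#3 had an adjusted p of 0.0664. The C#6 call ended without parental replicate 1 or 2 or C#6 replicate 2 or 3, with changes of 0.78 to 1.03 and an adjusted p of up to 0.121. After renewed quantile normalization SCARNA4 was called in all 4 clones.

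SCARNA9 was the only member called lower in all 4 clones. It stood at 7.17, 7.51 and 7.65 in C#1, 7.66, 7.38 and 7.16 in C#2, 6.89, 7.28 and 6.52 in C#3 and 7.67, 7.47 and 7.45 in C#6, against 8.07, 8.22 and 8.03 in parental cells. No clone array reached the parental ones, and C#3 held the lowest. The changes were -0.66, -0.71, -1.21 and -0.58 (SE 0.17; adjusted p = 0.0136, 0.00949, 0.000197 and 0.0228), so that SCARNA9 was 1.59, 1.63, 2.31 and 1.49-fold lower in the same order. The C#1 call ended without parental replicate 2 or C#1 replicate 1 (-0.61 to -0.53). The C#6 call ended without parental replicate 1 or 2 or C#6 replicate 2 or 3 (-0.60 to -0.53) and after renewed quantile normalization (-0.48, adjusted p = 0.0504).

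SCARNA9 also differed among the clones (F test, adjusted p = 0.0411). This call ended in 11 of the 15 runs that left out 1 array (each parental array, C#1 replicates 2 and 3, C#2 replicate 2, C#3 replicates 1 and 3, each C#6 array), with an adjusted p of up to 0.244. C#1 minus C#3 was 0.55 (adjusted p = 0.0385), and C#3 minus C#6 was -0.63 (adjusted p = 0.0293). The first ended without parental replicate 1, C#1 replicate 2 or 3 or C#3 replicate 1 or 3 (adjusted p up to 0.192), the second without C#3 replicate 1 or 3 or any 1 C#6 array (up to 0.137). SCARNA1 and SCARNA2 were called in no clone: SCARNA1 changed by -0.09, -0.21, -0.28 and -0.11, and SCARNA2, which has its own promoter, by -0.09, 0.20, 0.33 and 0.26.

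**Figure D3:**
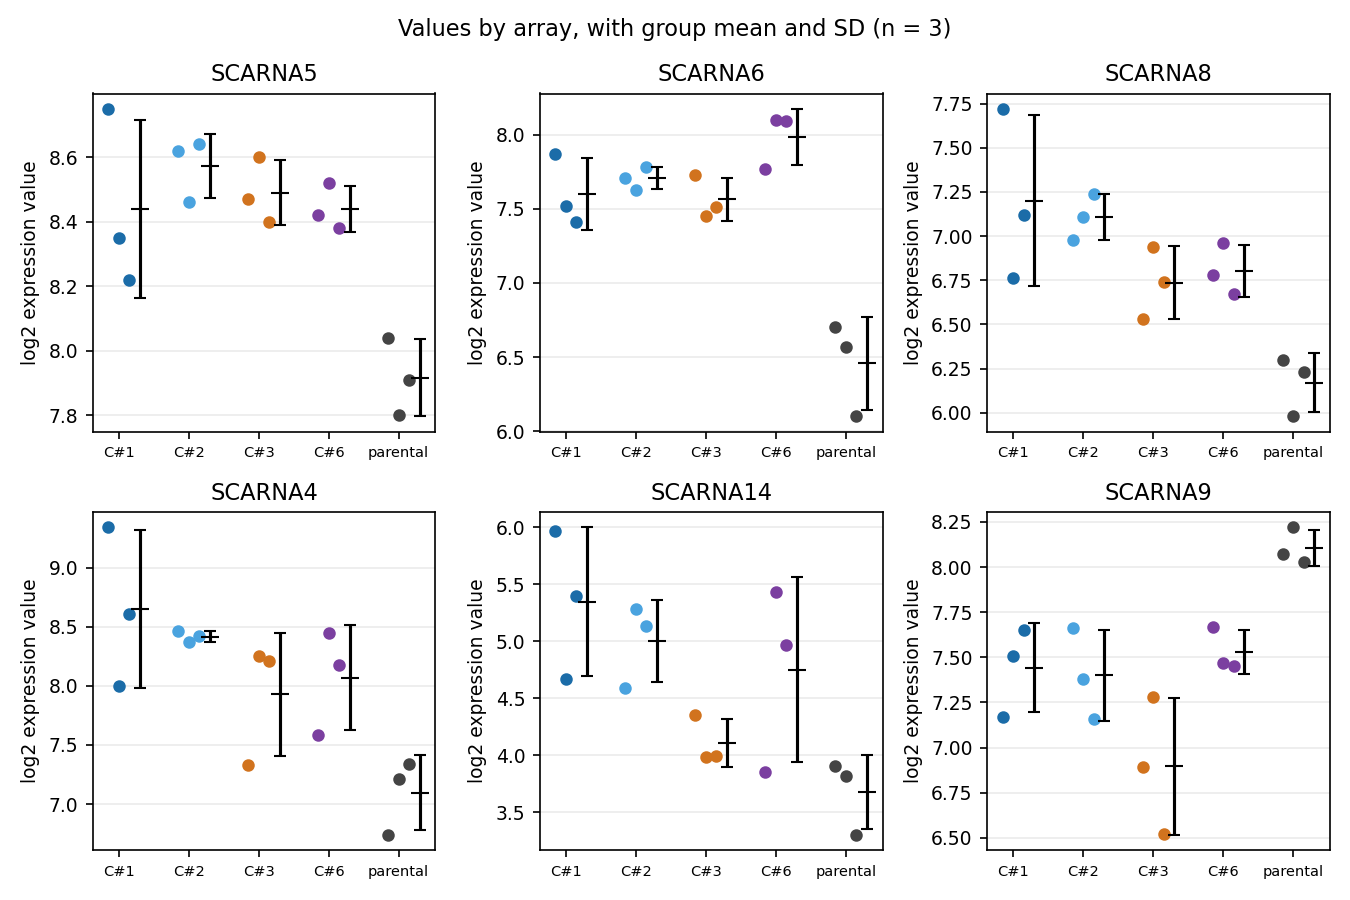
Log2 expression value (y axis, a separate scale in each panel) of 6 members in the 3 arrays of C#1, C#2, C#3, C#6 and parental cells (x axis); black marks are the group mean ± SD, n = 3. The clone arrays of SCARNA5, SCARNA6 and SCARNA8 all lie above the parental arrays, those of SCARNA9 all lie below, and C#6 replicate 1 of SCARNA14 lies among the parental arrays.

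SCARNA9L, a near copy of SCARNA9 within EIF1AX on the X chromosome, followed another order. How far the 2 probe sets read each other's RNA was not examined, since their probe sequences were not used here, so the values of both are uncertain. SCARNA9L had 3.17, 3.62 and 3.72 in C#1, 3.55, 3.79 and 3.61 in C#2, 3.10, 3.69 and 3.01 in C#3 and 4.28, 4.40 and 4.16 in C#6, against 3.94, 3.85 and 3.78 in parental cells. C#6 was highest and did not overlap the parental line. It fell by 0.59 in C#3 (SE 0.17, adjusted p = 0.0214), a call that ended without parental replicate 1 or 2 or C#3 replicate 1 or 3, at changes of -0.59 to -0.46. In C#6 the change was 0.43 (adjusted p = 0.0777). It differed among the clones (F test, adjusted p = 0.00149), with -1.02 for C#3 minus C#6 (adjusted p = 0.000847), -0.78 for C#1 minus C#6 (0.00487) and -0.63 for C#2 minus C#6 (0.0204). The F test called it in all 15 runs that left out 1 array; of the 3 differences, the last ended without C#2 replicate 1 or 3 or C#6 replicate 2 (-0.70 to -0.57 over all runs).

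SCARNA20 was the third member called as different among the clones (F test, adjusted p = 0.0021); 3 of 22 members were, where 22.5% of all genes were. It lies within USP32, a ubiquitin protease gene. It had 7.62, 7.53 and 7.18 in C#1, 7.63, 7.64 and 7.98 in C#2, 7.16, 7.47 and 7.18 in C#3 and 7.01, 6.91 and 6.83 in C#6, against 7.49, 7.38 and 7.15 in parental cells. C#2 lay above and C#6 below the parental arrays, without overlap, while C#1 and C#3 overlapped them. C#2 minus C#6 was 0.83 (adjusted p = 0.000855), C#1 minus C#6 was 0.53 (0.0188) and C#2 minus C#3 was 0.48 (0.0247). The F test called it in all 15 runs that left out 1 array. The C#1 minus C#6 call ended without C#1 replicate 1 or 2 or C#6 replicate 2 or 3 (adjusted p up to 0.0769), and the C#2 minus C#3 call without C#2 replicate 3 or C#3 replicate 1 or 3 (up to 0.112). Against the parental line it fell by 0.42 in C#6 (SE 0.14, adjusted p = 0.0366), and the change of 0.41 in C#2 had an adjusted p of 0.052. The C#6 call ended without parental replicate 1 or 2 or C#6 replicate 2 or 3 (-0.42 to -0.35), and after renewed quantile normalization (-0.29, adjusted p = 0.153). For C#1 minus C#3, limma also called SCARNA14 (1.24, adjusted p = 0.0198) and SCARNA2 (-0.42, adjusted p = 0.0303). The F test did not call these members (adjusted p = 0.064 and 0.0792). How far these pairwise calls depend on single arrays was not examined.

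SCARNA22 and SCARNA17 had the highest signals of the set. SCARNA22 is an H/ACA RNA known from myeloma with a translocation into NSD2, the histone methyltransferase gene that contains it. It had 10.87, 10.77 and 10.35 in C#1, 10.92, 10.75 and 10.90 in C#2, 10.69, 10.73 and 10.69 in C#3 and 10.80, 10.72 and 10.76 in C#6, against 10.43, 10.28 and 10.28 in parental cells. The clones lay above the parental line except for C#1 replicate 3. It rose by 0.52 in C#2, 0.37 in C#3 and 0.43 in C#6 (SE 0.12; adjusted p = 0.00591, 0.0391 and 0.0143), and the change in C#1 was 0.33 (adjusted p = 0.0643). The C#3 call ended without any 1 of the 3 parental or 3 C#3 arrays (0.35 to 0.42) and with median centring (0.36, adjusted p = 0.0525), and the C#6 call without parental replicate 2 or 3 (0.41).

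SCARNA17, by position within SNHG22, guides modification of the spliceosomal RNAs U4 and U12 and, like SCARNA2, has a promoter of its own. It had 9.75, 9.84 and 9.77 in C#2, against 9.40, 9.31 and 9.27 in parental cells. These arrays did not overlap, and the rise of 0.46 (SE 0.11, adjusted p = 0.00962) was called whichever 1 array was left out. Its changes in C#1, C#3 and C#6 were 0.26, 0.13 and 0.26 and were not called. The U1 guides SCARNA7 and SCARNA16 were called in no clone, with changes of -0.23 to 0.09 and of -0.02 to 0.21.

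SCARNA14, a dim member within the replication-fork gene TIPIN, had the largest single change of the set. It had 5.97, 4.67 and 5.40 in C#1, 4.59, 5.28 and 5.13 in C#2, 4.35, 3.98 and 3.99 in C#3 and 3.85, 5.43 and 4.97 in C#6, against 3.90, 3.82 and 3.30 in parental cells. C#1, C#2 and C#3 lay above the parental arrays, whereas C#6 replicate 1 lay among them. The rises were 1.68 in C#1, 1.33 in C#2 and 1.08 in C#6 (SE 0.34; adjusted p = 0.00303, 0.0134 and 0.0326), and the change in C#3 was 0.44 (adjusted p = 0.435). The C#2 call ended without parental replicate 3 or C#2 replicate 2 (1.14 to 1.19), and the C#6 call without parental replicate 2 or 3 or C#6 replicate 2 or 3 (0.74 to 1.15, adjusted p up to 0.168).

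Another 3 members rose in a single clone, and none of the 3 calls outlasted the leaving out of each array. SCARNA18, within TMEM167A, had 4.88, 4.65 and 4.93 in C#1, against 4.37, 3.89 and 3.94 in parental cells, a rise of 0.75 (adjusted p = 0.0124) whose call ended without parental replicate 2 or 3 (0.67 to 0.69). SCARNA21, within the chromatin remodeller gene CHD3, had 7.54, 7.69 and 7.81 in C#6, against 7.43, 7.05 and 7.21 in parental cells, a rise of 0.45 (adjusted p = 0.0326). SCARNA23, within the DNA polymerase gene POLA1, had 4.28, 4.78 and 4.81 in C#6, against 4.23, 3.74 and 3.92 in parental cells, a rise of 0.66 (adjusted p = 0.0224). These groups did not overlap. The last 2 calls ended without parental replicate 2 or 3 or C#6 replicate 2 or 3, at 0.36 to 0.45 for SCARNA21 and 0.54 to 0.63 for SCARNA23. SCARNA3, SCARNA11 and SCARNA27 were called in no clone, with changes of -0.29 to 0.38, 0.17 to 0.43 and -0.28 to -0.20.

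Of the tested members, 12 lie within 11 genes that were also tested, and of the 44 comparisons of those genes with the parental line limma called 0 higher and 6 lower. HAUS6 and NCAPD2, which contain SCARNA8 and SCARNA10, were not among the measured genes and take no part in this count. Over all genes, 5.47% to 7.73% were called higher in a clone and 11% to 14.7% lower, so the calls downward are near the share of all genes. At an unadjusted p below 0.05 there were 2 higher (CHD4 in C#1 and CHD3 in C#3) and 9 lower. The share of all genes at that unadjusted threshold was not counted, so nothing is read from this split. ATG16L1, which contains SCARNA5 and SCARNA6, had 7.58, 7.73 and 7.28 in C#1, 7.76, 7.43 and 7.68 in C#2, 7.69, 7.94 and 7.62 in C#3 and 7.71, 7.74 and 7.69 in C#6, against 7.58, 7.40 and 7.49 in parental cells. Its changes of 0.04, 0.14, 0.26 and 0.23 were not called. CEP295, which contains SCARNA9, changed by -0.02, -0.15, -0.17 and -0.32, and NSD2, which contains SCARNA22, by 0.07, 0.11, 0.06 and -0.27, none of them called.

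Set against its containing gene within each array, SCARNA6 minus ATG16L1 ranged from -0.22 to 0.29 in C#1, -0.06 to 0.20 in C#2, -0.49 to 0.04 in C#3 and 0.05 to 0.40 in C#6, against -1.38 to -0.82 in parental cells. SCARNA5 minus ATG16L1 ranged from 0.62 to 1.17, 0.85 to 1.03, 0.66 to 0.79 and 0.69 to 0.78 in the same clones, against 0.41 to 0.45 in parental cells. SCARNA4 minus KHDC4 ranged from 0.91 to 1.98, 1.19 to 1.4, -0.06 to 0.49 and 0.52 to 1.35, against -1.05 to -0.21 in parental cells. For these 3 pairs, picked among members already called higher, no clone overlapped the parental arrays. The same held for SCARNA14 minus TIPIN, at -3.16 to -0.99 in the clones and -4.06 to -3.53 in parental cells. SCARNA14 too was already called higher, in C#1, C#2 and C#6. In C#3 it was not called (0.44, adjusted p = 0.435), while TIPIN fell by 0.86. Such a separation partly repeats the calls by which these members were picked and is no separate support for them. In the pairs of SCARNA7, SCARNA11, SCARNA12, SCARNA16, SCARNA18 and SCARNA21, at least 1 clone overlapped the parental arrays. For SCARNA22 minus NSD2 the C#1 arrays did, at 2.97 to 3.75, against 3.08 to 3.23 in parental cells. For SCARNA9 minus CEP295, C#2 ran from -0.07 to 1.24 and C#6 from 0.71 to 1.29, against 1.13 to 1.24 in parental cells, so both overlapped. With 3 arrays against 3, an exact two-sided permutation test cannot go below 0.1, and none was run.

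The 6 calls downward were in 4 containing genes. KPNA4, an importin gene that contains SCARNA7, fell by 0.51 in C#1, 0.63 in C#2 and 0.51 in C#6 (adjusted p = 0.00322, 0.000769 and 0.00249), and SCARNA7 itself was not called. TIPIN fell by 0.86 in C#3 (adjusted p = 0.036), KHDC4 by 0.50 in C#2 (0.0481) and SNHG20 by 0.52 in C#2 (0.0291). These last 3 calls were fragile: TIPIN's ended without any 1 parental array or C#3 replicate 1 or 3 (-0.90 to -0.73), and SNHG20's without parental replicate 1 or C#2 replicate 1 or 2 (-0.52 to -0.40). KHDC4's ended without any 1 of 10 arrays, namely parental replicates 1 and 3, C#1 replicates 1 and 3, all 3 of C#2, C#3 replicates 2 and 3 and C#6 replicate 2 (-0.54 to -0.42). After renewed quantile normalization the adjusted p was 0.0912 for KHDC4 and 0.0654 for SNHG20.

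**Figure D4:**
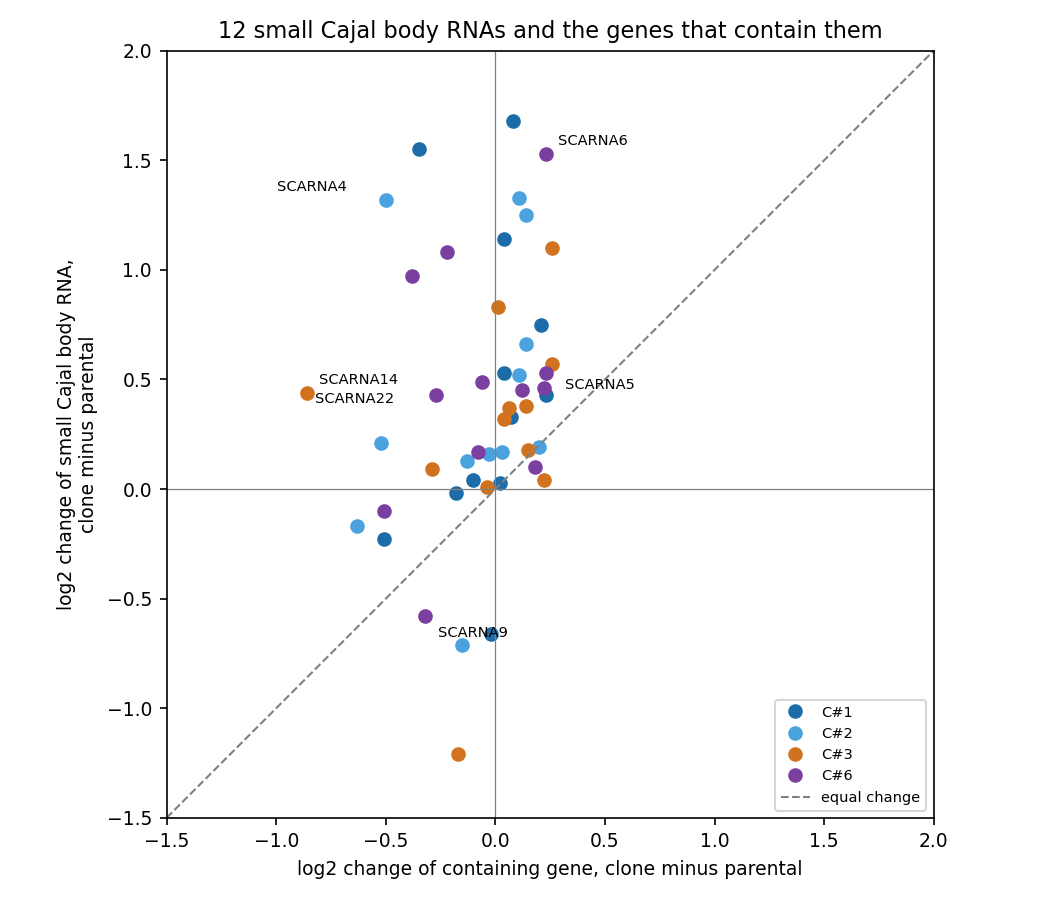
Log2 change against the parental line of 12 small Cajal body RNAs (y axis) and of the genes that contain them (x axis), 1 point per member and clone, coloured by clone; the dashed line marks equal change. The points of SCARNA6 lie high on the y axis with changes of 1.10 to 1.53, while ATG16L1 lies between 0.04 and 0.26 on the x axis.

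Other short structured RNAs, chosen outside the rule after the values were available, were read on the same arrays. TERC, the RNA of telomerase, has an H/ACA domain and the Cajal body signal. It had 9.22, 8.74 and 8.66 in C#1, 9.29, 9.02 and 9.23 in C#2, 8.24, 7.90 and 8.18 in C#3 and 9.02, 9.53 and 9.37 in C#6, against 8.41, 8.22 and 8.32 in parental cells. C#1, C#2 and C#6 lay above the parental line and C#3 overlapped it. The rises were 0.56, 0.86 and 0.99 (SE 0.16; adjusted p = 0.0203, 0.00118 and 0.000243), and the change in C#3 was -0.21 (adjusted p = 0.40). The C#1 call ended without parental replicate 2 or 3 or C#1 replicate 1 (0.39 to 0.56).

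RMRP, the RNA of the ribonuclease MRP, rose in all 4 clones by 0.35, 0.40, 0.30 and 0.28 (SE 0.09; adjusted p = 0.0123, 0.00575, 0.0299 and 0.0348), and only the C#2 call outlasted the leaving out of each array. The C#1 call ended without parental replicate 2 or C#1 replicate 1 (0.30 to 0.33), the C#3 call without any 1 parental array or C#3 replicate 1 (0.25 to 0.33), and the C#6 call without any 1 parental array or C#6 replicate 1 or 2 (0.25 to 0.30) and with median centring (0.26, adjusted p = 0.0528). The vault RNA VTRNA1-1 had 6.08, 6.11 and 6.00 in C#1, 6.33, 5.88 and 6.07 in C#2, 4.87, 5.55 and 5.06 in C#3 and 5.01, 6.40 and 6.44 in C#6, against 4.48, 3.92 and 4.50 in parental cells. No clone array overlapped the parental ones. It rose by 1.76, 1.79 and 1.65 in C#1, C#2 and C#6 (SE 0.29; adjusted p = 0.000616, 0.000539 and 0.000663), and the change of 0.86 in C#3 had an adjusted p of 0.0525. RPPH1, the RNA of ribonuclease P, and VTRNA1-3 were called in no clone, and VTRNA1-2 and VTRNA2-1 did not pass the filter.

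The lists below are read beside the share of all genes called lower, 11.2% in C#1, 11.5% in C#2, 11% in C#3 and 14.7% in C#6, and called higher, 5.47% to 7.73%. Of the core proteins of these particles, NOP58 and NOP10 were called lower in all 4 clones. Among 3 tested core proteins of C/D particles, NOP58, a scaffold of the particle, had 9.26, 9.53 and 9.73 in C#1, 9.43, 9.52 and 9.69 in C#2, 9.52, 9.58 and 9.41 in C#3 and 9.57, 9.41 and 9.54 in C#6, against 9.99, 10.12 and 10.09 in parental cells. It fell in all 4 clones without overlap, by 0.56, 0.52, 0.56 and 0.56 (SE 0.12; adjusted p = 0.00321, 0.00523, 0.00303 and 0.00221), and each call was kept whichever 1 array was left out. SNU13, which binds the kink-turn of C/D RNAs, fell by 0.52 in C#3 (adjusted p = 0.00176). Among 3 tested H/ACA core proteins, NOP10 fell by 0.45, 0.33, 0.85 and 0.47 (SE 0.11; adjusted p = 0.00927, 0.0452, 7.97e-05 and 0.00503). The NOP10 call in C#2 ended without any 1 of 8 arrays, namely the 3 parental arrays, C#1 replicates 2 and 3, C#2 replicates 2 and 3 and C#6 replicate 2 (-0.37 to -0.27), and after renewed quantile normalization (-0.27, adjusted p = 0.0946), and the call in C#1 ended without parental replicate 1 (-0.39). DKC1 and NOP56 were not analysed here.

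Of 8 assembly factors, NUFIP1 rose by 0.41 in C#1 (adjusted p = 0.0161), a call that ended without parental replicate 1 or 3 or C#1 replicate 1 or 3 (0.33 to 0.40), while NOPCHAP1, a chaperone of NOP58, fell by 0.58 in C#3 and 0.54 in C#6 (adjusted p = 0.0056 and 0.00653). Of 14 Cajal body proteins, 2 were called lower in C#1, 3 in C#2 and 3 in C#6, and 1 was called higher in C#3 and 1 in C#6. With 11.2%, 11.5% and 14.7% of all genes called lower in C#1, C#2 and C#6, these counts are near the share of all genes. Among them GEMIN4, a subunit of the SMN complex, fell by 0.56 in C#1 and 0.45 in C#2 (adjusted p = 0.00174 and 0.00803), and GEMIN5, which recognises spliceosomal RNAs for that complex, rose by 0.35 in C#3 and 0.42 in C#6 (adjusted p = 0.0426 and 0.0127). The GEMIN5 call in C#3 ended without any 1 parental or C#3 array or C#2 replicate 2 (0.29 to 0.39) and with median centring (0.33, adjusted p = 0.0696), and that in C#6 without C#6 replicate 3 (0.32). DDX20 fell by 0.35, 0.32 and 0.29 in C#1, C#2 and C#6, ICE1 by 0.36 in C#2, SART3 by 0.36 in C#6 and ELL by 0.33 in C#6. The calls for DDX20, ICE1, SART3 and ELL all ended after renewed quantile normalization, with changes of -0.27 to -0.16, and with some arrays left out. SART3's ended without parental replicate 2 or C#6 replicate 1 (-0.29), and those of ICE1 and ELL without any 1 of 10 and of 13 arrays, the 3 parental arrays among them (-0.39 to -0.32 and -0.38 to -0.26). DDX20's ended without parental replicate 3 in C#1, C#2 and C#6 (and, depending on the clone, without parental replicate 2, C#1 replicate 1, C#2 replicate 1, or C#6 replicate 2 or 3), at -0.32 to -0.24.

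Of 14 factors of 3′-end processing and cap formation, 3 were called lower in C#1, 4 in C#2, 1 in C#3 and 3 in C#6, and 1 was called higher in C#3. Of all genes, 11.2%, 11.5%, 11% and 14.7% were called lower in these clones. TGS1, which hypermethylates the cap of small nuclear RNAs, fell by 0.41 in C#1, 0.75 in C#3 and 0.70 in C#6 (SE 0.13; adjusted p = 0.0426, 0.00119 and 0.00123), and the C#1 call ended after renewed quantile normalization (-0.32, adjusted p = 0.105). It also ended without parental replicate 3, any 1 C#1 array, C#2 replicate 2, C#3 replicate 1 or C#6 replicate 3 (-0.44 to -0.24). PHAX, the export adaptor of capped small RNAs, rose by 0.49 in C#3 (adjusted p = 0.00385). INTS1 of the Integrator complex fell by 0.46 in C#6 and INTS6 by 0.40 in C#2, and the exosome subunit EXOSC2 fell by 0.56 in C#1 and 0.38 in C#2. EXOSC10, the nuclear exosome's nuclease, fell by 0.37, 0.30 and 0.31 in C#1, C#2 and C#6, but none of the 3 calls held for the mean of its probe sets (-0.22, -0.15 and -0.12). The calls for INTS6 and for EXOSC2 in C#2 ended after renewed quantile normalization, at -0.29 and -0.31, and without parental replicate 1 or 3 or C#2 replicate 1 or 2 (-0.41 to -0.34 for INTS6, -0.42 to -0.33 for EXOSC2, whose call also ended without parental replicate 2).

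Of 11 non-coding genes that host nucleolar RNAs, 3 were called lower in C#1, 4 in C#2, 2 in C#3 and 3 in C#6, and 1 was called higher in each of C#1, C#2 and C#3. Of all genes, 11.2%, 11.5%, 11% and 14.7% were called lower in these clones. SNHG15 had 5.34, 5.29 and 5.22 in C#1, 5.98, 5.44 and 5.73 in C#2, 5.60, 5.81 and 5.92 in C#3 and 5.48, 5.30 and 5.42 in C#6, against 6.31, 6.29 and 6.57 in parental cells. It fell in all 4 clones without overlap, by 1.10, 0.67, 0.61 and 0.99 (SE 0.13; adjusted p = 3.95e-05, 0.00208, 0.00402 and 5.32e-05). GAS5 fell by 0.54 in C#3 and 0.74 in C#6, SNHG17 by 0.56 in C#1 (a call that ended without parental replicate 3, at -0.46) and 0.65 in C#2, and ZFAS1 by 0.55, 0.54 and 0.64 in C#1, C#2 and C#6. CYTOR rose by 0.29 in C#1 and 0.42 in C#2, the first of which ended with median centring (0.28, adjusted p = 0.0509) and without any 1 parental or C#1 array or C#6 replicate 3 (0.25 to 0.34). The 4 called lower in C#2 include SNHG20, already given above as the gene that contains SCARNA16. Apart from SCARNA16, the small RNAs that these genes host were not analysed here.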

How the data were processed

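The values are log2 expression as the authors deposited them, for 53617 probe sets on each of 15 arrays. The submitters' processing notes name RMA, the Transcriptome Analysis Console and Expression Console 1.4.1, without their roles. RMA makes array distributions alike, which would remove a shift of most genes, and compresses changes near background. In the platform annotation 16098 probe sets had 1 symbol and 37519 had none here. Genes above the 40th percentile of an array in at least 3 arrays were kept, each by its probe set of highest mean.

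Group means over the 15 arrays were estimated in 1 linear model (limma 3.58.1 under R 4.3.3). Adjusted p is Benjamini-Hochberg over 12147 genes within each comparison, called below 0.05, and an F test compared the 4 clones. The steps were tested on simulated data. The members, lists and tests were chosen with earlier results of these data known. The text names every tested member, and of each list all called genes up to 6, otherwise the 6 with the largest change. Containing genes came from RefSeq positions (GRCh38.p14) without a strand check. Replicate numbers did not pair clone and parental arrays (0 of 12 same-numbered pairs correlated above 0.1). Between clones 10 of 18 did, and all 3 pairs did only for C#1 with C#6 (0.175 to 0.221). No 2 arrays were identical, and their number limits the precision. Figures used matplotlib 3.10.9 in Python 3.11.15.

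Alternatives were no filter, a stricter filter (60th percentile), renewed quantile normalization, median centring, a replicate block, each array left out in turn, eBayes with trend and robust settings, and the mean of all probe sets. The list genes and the differences among clones under these alternatives, and the differences from containing genes, were added after the values were seen.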

Additional observations from a re-analysis of the deposited data

Results flagged for a closer look

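Some genes differed among the 4 clones themselves by the F test of limma. The parental mean takes no part in this test, but the parental arrays enter its estimate of the spread. Among the members these were SCARNA9L (adjusted p = 0.00149), SCARNA20 (0.0021) and SCARNA9 (0.0411). With each array left out in turn, the first 2 stayed called in all 15 runs and SCARNA9 in 4. TERC, chosen outside the rule, had 0.000123, with C#3 below the other clones. Of the containing genes, SNHG20 had 0.0182, TIPIN 0.0367 and NSD2 0.0408; NSD2 stayed called in 4 of the 15 runs and was not called with median centring, TIPIN stayed called in 9 and was not called with trend and robust settings, and SNHG20 stayed called in 12.

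Among the proteins that bind or process these RNAs, EXOSC10 had an adjusted p of 0.000486, GEMIN4 0.000509, GEMIN5 0.000884, INTS1 0.00149, SNU13 0.0058, NOP10 0.01, PHAX 0.0102, TGS1 0.0306, SART3 0.0343 and EXOSC2 0.0494. EXOSC2 stayed called in 2 of the 15 runs and was not called with no filter or median centring, TGS1 stayed called in 10 runs, SART3 in 11, and NOP10 and PHAX in 14. Of the non-coding host genes, CYTOR had 0.0194 and SNHG15 0.0226, and they stayed called in 13 and 11 runs.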

How the results depend on the processing

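No value that was called changed its sign. Of 5268 single-gene values under the alternatives, 65 had the other sign than with all arrays and the usual settings, all of them uncalled, at most 0.17 in size before and 0.15 after. With all arrays, the members called in either direction numbered 7 in C#1, 9 in C#2, 7 in C#3 and 10 in C#6, with 4 called one way in all 4 clones and 3 different among clones. Leaving out each array in turn gave 5 to 10 in C#1, 7 to 10 in C#2, 4 to 9 in C#3, 2 to 11 in C#6, 2 to 5 in all 4 clones and 2 to 5 among clones. The count in C#3 was 4 without parental replicate 1, parental replicate 2 or C#3 replicate 3. In C#6 it was 2 without parental replicate 2, 6 without parental replicate 3, 3 without C#6 replicate 2 and 5 without C#6 replicate 3. Among clones it was 5 without C#1 replicate 1 or C#1 replicate 2. Of 33 member calls, 18 were kept whichever 1 array was left out and 15 ended without at least 1; beyond the fewer arrays, the cause was not tested. Every other alternative kept each of these counts within 1.5 times. The mean of all probe sets could not alter a member's values, since every member has 1 probe set. A similar count can hold other members. After renewed quantile normalization, 5 members were called higher in all 4 clones and 0 lower. These were SCARNA4, SCARNA5, SCARNA6, SCARNA8 and SCARNA22, without SCARNA9. The replicate number as a block gave 8, 9, 6 and 11 members in the 4 clones in the same order, 3 in all 4 clones and 3 among clones, and 9 of 15 arrays correlated best with their own number. Under the block SCARNA8 in C#3 had an adjusted p of 0.0517 and NOP10 and ICE1 in C#2 and ELL in C#6 had 0.0532, 0.052 and 0.053. For C#1 minus C#6, where the numbers pair the arrays, the block left SCARNA9L (0.00237) and SCARNA20 (0.0191) called. Signals near background, such as those of SCARNA9L, SCARNA14 and SCARNA15, limit what can be read from them.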
